A study of Homo sapiens with 3 samples.

Results

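The genes described here are 40 genes of DNA replication, mitosis and cyclin control, out of 58884 gene rows measured in LNCaP cells, a human prostate cancer line kept in culture. They were chosen by name, as rows whose Ensembl identifier carries that symbol in GENCODE, and all 40 were found. They fall into 19 replication genes, 15 mitotic genes and 6 genes that control entry into S phase. Earlier results of these data were known when the 40 genes were chosen. Ranks among them and shares of them called may therefore reflect that choice. Cells were seeded, left for 24 h and grown for 72 h in a mixture that was 50% conditioned medium (CM) and held 2% FBS (fetal bovine serum). The groups were PPAT-CM, which the labels call tumor, PVAT-CM, which they call normal, and control-CM. The series title writes out periprostatic adipose tissue, taken here to be PPAT, and no label expands PVAT. No genetic change or drug is named for any group. Each medium had 1 library, so no test between media was possible, and every interval below is a 95% counting interval that covers counting error only. The stated purpose was to compare RNA levels between cells in the 3 media.

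A dividing cell copies its DNA in S phase and separates the copies in mitosis. Cyclin D with its kinases, and then cyclin E, inactivate the RB1 protein and release E2F transcription factors, which switch on replication genes. The MCM proteins are loaded onto origins by CDC6 and CDT1 and are activated as a helicase by CDC45 and the GINS proteins. Genes of mitosis are switched on later, through the MuvB complex, B-MYB and FOXM1, which act on promoters with CHR elements and CCAAT boxes. Cells that leave the cycle lower both sets of transcripts, and MKI67 and TOP2A are used as proliferation markers in prostate tumours.

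Replication and mitotic genes held E2F and CHR letters in different shares of their promoters, which were used nowhere in choosing or measuring them. RefSeq promoters (GRCh38.p14) were in the table for 33 of the 40 genes, and the 250 bases before each start were searched on both strands. An E2F core, GCGGGAA or TTTGGCG, was present in 13 of 17 replication promoters (76.5%) and 1 of 12 mitotic promoters (8.33%), against 7.02% of 27305 promoters in all. The letters of the CHR element, TTTGAA, were present in 1 of 17 replication promoters (5.88%) and 5 of 12 mitotic promoters (41.7%), against 13.6% of all. A CCAAT box was present in 70.6% of replication and 91.7% of mitotic promoters, against 33.0% of all. Outside the members the shares were less far apart for the E2F core, at 23.3% of 43 other replication promoters and 15.2% of 46 other mitotic promoters, while the CHR letters were in 2.33% and 54.3% of them. To show these letters, 30 bases around the match nearest the start are shown 5′ to 3′ on the strand of the gene, with the match in capitals. The E2F windows are those of the 4 replication genes with the most counts, of RRM1 and TYMS, and of CENPN, the mitotic gene with an E2F core. POLE and RRM1 carry the core on the opposite strand.
PCNA, chr20:5126663-5126692, minus strand: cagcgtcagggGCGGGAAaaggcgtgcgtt
MCM7, chr7:100101566-100101595, minus strand: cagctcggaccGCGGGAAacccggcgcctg
POLE, chr12:132687343-132687372, minus strand: ctgggtgggagcgCGCCAAAtttctcccct
MCM3, chr6:52284747-52284776, minus strand: aacctttggtgGCGGGAAgagttcggaagt
RRM1, chr11:4094451-4094480, plus strand: caagaaaaacgTTCCCGCcggttaggtttt
TYMS, chr18:657603-657632, plus strand: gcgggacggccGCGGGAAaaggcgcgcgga
CENPN, chr16:81007184-81007213, plus strand: agcttggaggcgGCGGGAActgcaattggt
The CHR windows are those of the 5 mitotic genes that hold these letters, and TOP2A carries them on the opposite strand.
MKI67, chr10:128126435-128126464, minus strand: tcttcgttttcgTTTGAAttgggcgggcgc
TOP2A, chr17:40418030-40418059, minus strand: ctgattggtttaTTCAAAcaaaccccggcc
CDK1, chr10:60778158-60778187, plus strand: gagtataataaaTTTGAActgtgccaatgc
CCNB2, chr15:59105105-59105134, plus strand: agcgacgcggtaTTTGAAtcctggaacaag
PLK1, chr16:23678848-23678877, plus strand: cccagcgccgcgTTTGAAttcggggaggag
In MKI67, CCNB2 and PLK1 the CHR letters began 29 bases before the start, and in TOP2A and CDK1 they began 151 and 161 bases before it. A match describes the letters only and does not show that a factor binds there.

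**Figure D1:**
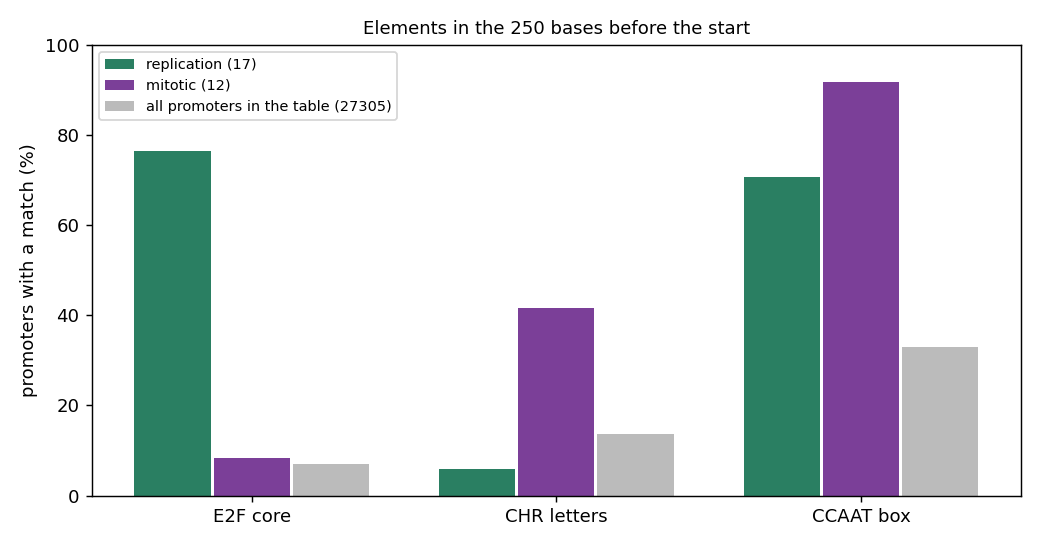
Share of promoters (%) with an E2F core, CHR letters or a CCAAT box in the 250 bases before the start, for 17 replication promoters, 12 mitotic promoters and all 27305 promoters in the table. The E2F core was in 76.5% of replication and 8.33% of mitotic promoters, and the CHR letters in 5.88% and 41.7%.

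Library totals lay between 14174241 and 16965584 counts. Mitochondrial genes made up 15.5% of the counts in PPAT-CM, 21.1% in PVAT-CM and 30.8% in control-CM, and their part in the differences below was not tested. Counts were scaled by TMM factors (trimmed mean of M-values) of 1.09, 1.00 and 0.91 in the same order. All 10 LNCaP markers examined, among them KLK3, were present in each library and summed to 50255, 52056 and 54642 counts. By the rule given below 4 of them (40%), including KLK3, were called lower in PPAT-CM than in control-CM, against 11.6% of all genes tested. Leukocyte markers (6 genes) summed to 10, 17 and 11 counts and endothelial markers (4 genes) to 35, 16 and 27, with PTPRC, CD3E, CDH5 and KDR at 0 in every library. Of 5 adipocyte markers, ADIPOQ, LEP and FABP4 were at 0 in every library and PLIN1 had 89, 27 and 13 counts. Of 6 fibroblast markers, COL1A2 and DCN were at 0, and the list summed to 534, 371 and 792 counts, most of them from COL1A1. The part of these markers in the results was not tested.

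Among the genes that passed the filter on counts, the median replication gene lay below the median level and most mitotic genes were low. Replication genes ranged widely, with PCNA at percentile 95.1 and MCM7 at 79.0 in control-CM. Levels are compared between genes as scaled CPM (counts scaled to library size) per kilobase of exon. The median of the 19 replication genes was 2.26 in PPAT-CM, 2.37 in PVAT-CM and 2.10 in control-CM. The median of the 15 mitotic genes was 0.508, 0.295 and 0.505, and that of the 6 S-phase entry genes was 4.72, 3.95 and 4.11. Over the genes tested, those with a mean of at least 10 counts over the 3 libraries, the median level was 3.74, 3.68 and 3.74. The median mitotic gene stood at percentile 11.9 of the genes tested in PPAT-CM, 7.03 in PVAT-CM and 11.8 in control-CM. In control-CM 10 of 15 mitotic genes had fewer than 50 counts, against 4 of 19 replication genes and 0 of 6 entry genes.

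PCNA, the sliding clamp of the DNA polymerases (chromosome 20, 5114953 to 5126626, GRCh38), had the highest level of all 40 genes per kilobase. Its level was 41.0 in PPAT-CM, 46.6 in PVAT-CM and 43.0 in control-CM. Cyclin D1 (CCND1, chromosome 11, 69641087 to 69654474) was next, at 25.6, 23.3 and 23.0. The 6 helicase subunits, which act as a complex with 1 copy of each, had unequal transcript levels. MCM7 was the highest of them, at 15.6, 12.6 and 12.0, and MCM2 the lowest, at 0.571, 0.631 and 0.718. MCM3 lay second, at 6.56, 5.82 and 6.06, and MCM4, MCM6 and MCM5 lay between 1.16 and 2.45. This order, apart from an exchange of MCM4 and MCM6 in PVAT-CM, was the same in the 3 libraries. Exons are annotated for many isoforms, so the lengths, and with them the levels, are approximate.

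**Figure D2:**
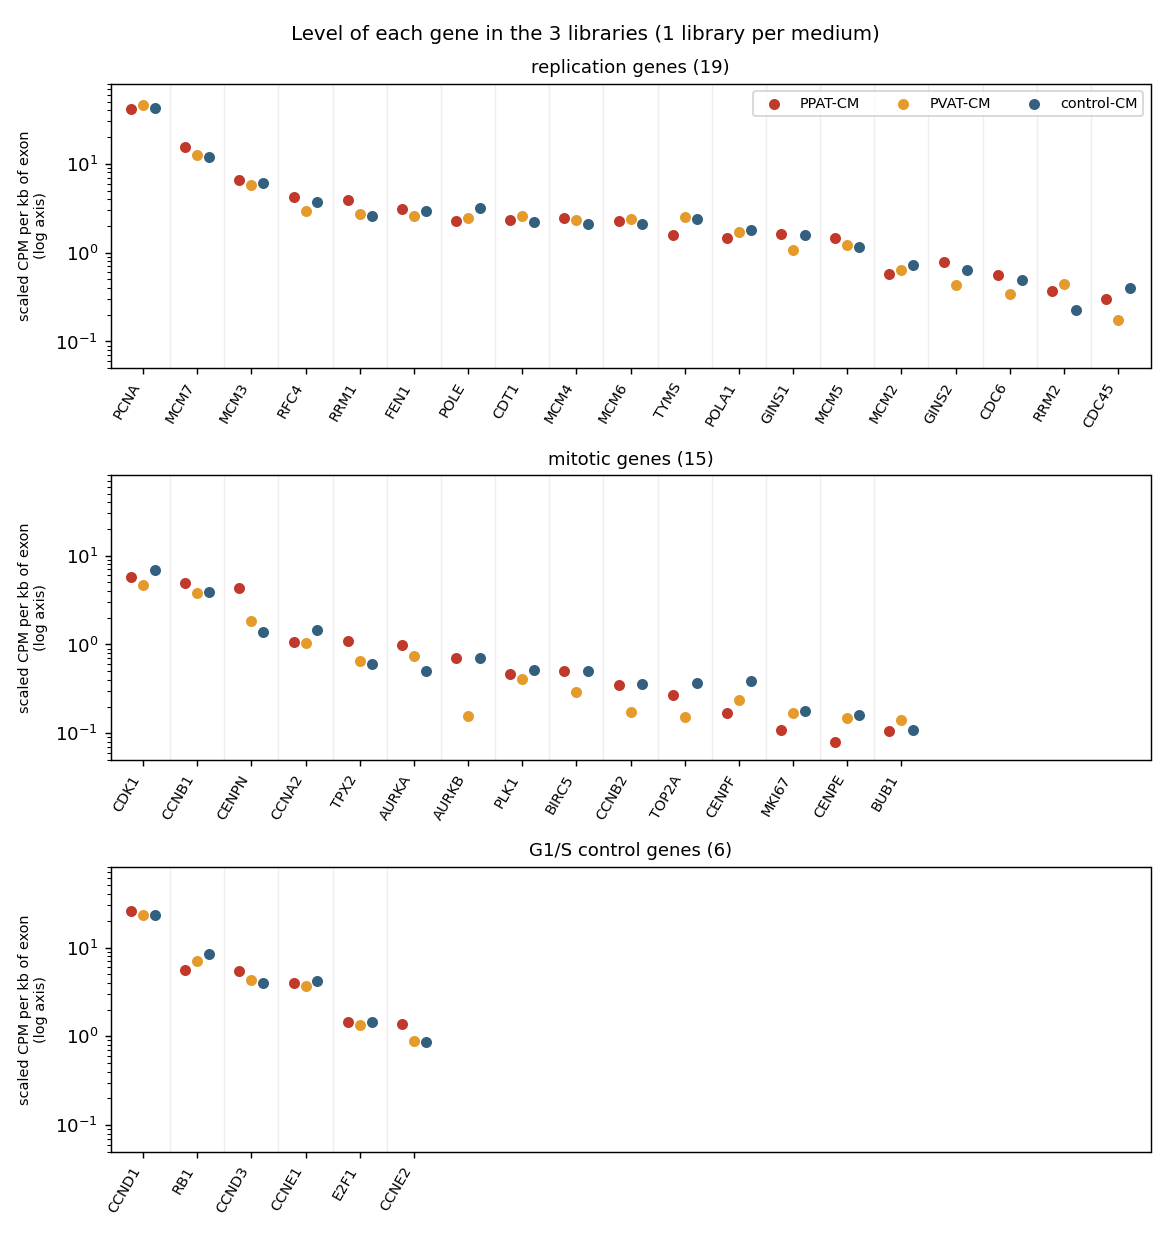
Level of each gene as scaled CPM per kilobase of exon (log axis) in PPAT-CM, PVAT-CM and control-CM, 1 point per library, for replication, mitotic and S-phase entry genes. PCNA lies between 41.0 and 46.6, while most mitotic genes lie under 1.

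Among mitotic genes CDK1, the kinase that drives entry into mitosis, was the highest per kilobase, at 5.78 in PPAT-CM, 4.72 in PVAT-CM and 6.84 in control-CM. Its partner cyclin B1 (CCNB1) lay at 4.95, 3.85 and 3.95, while cyclin B2 (CCNB2) lay at 0.346, 0.176 and 0.356. The marker MKI67 had 26 counts in PPAT-CM, 31 in PVAT-CM and 34 in control-CM, and the intervals of its 3 ratios included 1. In control-CM MKI67 stood at percentile 3.4 of the genes tested and the checkpoint kinase gene BUB1 at 1.6. In bulk RNA, fewer dividing cells and less RNA per dividing cell cannot be told apart.

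Most of the 40 genes were within 1.5-fold between PPAT-CM and control-CM, as were most of all genes tested. Whatever their intervals, 6 of the 40 lay above this range and 5 below it. Among the 16009 genes tested, 2209 lay above it and 2298 below it. A gene is called higher or lower when its scaled count ratio was at least 1.5-fold and its interval excluded 1. By this rule 5 of 40 genes (12.5%) were higher and 3 (7.5%) lower in PPAT-CM. Of all 16009 genes tested, 11.7% were higher and 11.6% lower, so the count of higher genes was near the background. The median log2 ratio was 0.11 over the replication genes, -0.04 over the mitotic genes and 0.08 over the entry genes, against -0.02 over all genes tested. Of the 24 members with a mean of at least 50 counts, 3 were higher and 2 lower, against 11.3% and 9.6% of the 12256 such genes. With total counts or another scaling, PCNA, CDK1, CCNB2, AURKB, BUB1, PLK1, BIRC5, CCNE1 and E2F1 crossed a ratio of 1. All 40 genes had a mean of at least 10 counts, so none was left out.

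CENPN, a kinetochore protein that recognises the centromeric nucleosome (ENSG00000166451, chromosome 16, 81006498 to 81033114), differed most of the 40 chosen genes between PPAT-CM and control-CM. It had 289 counts in PPAT-CM, 94 in PVAT-CM and 74 in control-CM. It was 3.16-fold higher in PPAT-CM than in control-CM (2.44 to 4.14), and the PPAT-CM library lay far above the other two. AURKA, the Aurora A kinase of the spindle poles, had 54, 31 and 22 counts and was 1.99-fold higher in PPAT-CM than in control-CM (1.19 to 3.43). TPX2, which binds and activates Aurora A, had 74, 33 and 33 counts, a level 1.82-fold higher (1.19 to 2.83). CENPF, a kinetochore protein of late G2 and mitosis, had 37, 39 and 68 counts and was 2.27-fold lower in PPAT-CM than in control-CM (1.5 to 3.48). These 4 were the mitotic genes called, 3 higher and 1 lower.

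The other 11 mitotic genes were not called in this comparison. The mitotic motor gene CENPE had 14, 20 and 23 counts in PPAT-CM, PVAT-CM and control-CM and was 2.03-fold lower in PPAT-CM, with an interval that just included 1 (1.00 to 4.26). With upper quartile factors CENPE was called lower. MKI67 was 1.61-fold lower in PPAT-CM with an interval that included 1 (0.940 to 2.80). TOP2A, a topoisomerase of chromosome segregation, had 32, 14 and 36 counts, and BIRC5, which encodes survivin of the chromosomal passenger complex, had 36, 16 and 29. CDK1 had 422, 264 and 405 counts, a 1.18-fold lower level in PPAT-CM (1.03 to 1.36). With total counts in place of TMM that ratio turned to 1.02-fold higher. CCNB1 had 235, 140 and 152 counts, a level 1.25-fold higher (1.02 to 1.55), short of 1.5-fold. Cyclin A2 (CCNA2) had 55, 41 and 62 counts. The remaining 4 (CCNB2, AURKB, BUB1 and PLK1) had between 5 and 41 counts in any library, and their intervals for this comparison included 1.

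Of the replication genes 1 was higher and 1 lower in PPAT-CM. RRM1, the large subunit of ribonucleotide reductase, which makes deoxynucleotides, had 307 counts in PPAT-CM, 163 in PVAT-CM and 164 in control-CM. It was 1.52-fold higher in PPAT-CM than in control-CM (1.25 to 1.85), and its ratio of 1.49 with upper quartile factors was not called. Its small subunit RRM2 had 37, 34 and 18 counts, a 1.67-fold ratio whose interval included 1 (0.925 to 3.11). TYMS, which makes thymidylate, had 73, 89 and 89 counts and was 1.5-fold lower in PPAT-CM (1.09 to 2.08). TYMS shares 39.1% of its exon bases with ENOSF1 on the other strand, and no source used here gives the strand setting, so its counts are uncertain.

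The helicase and polymerase genes were not called. MCM7 had 1275, 783 and 790 counts and was 1.31-fold higher in PPAT-CM than in control-CM (1.2 to 1.43). MCM5 had 200, 127 and 128 counts (1.27-fold, 1.01 to 1.59), and MCM3 had 445, 302 and 333, with an interval that included 1. The intervals of MCM2, MCM4 and MCM6 included 1 as well. PCNA had 1121, 974 and 953 counts, and its ratio of PPAT-CM over control-CM was 0.953 (0.874 to 1.04). POLE, the catalytic subunit of the leading-strand polymerase, had 697, 574 and 805 counts and was 1.43-fold lower in PPAT-CM (1.29 to 1.58), just short of 1.5-fold. POLA1, the catalytic subunit of the polymerase that starts new strands, had 172, 155 and 171 counts. The clamp loader gene RFC4, the flap nuclease gene FEN1, the loading factor genes CDC6 and CDT1, and CDC45, GINS1 and GINS2 had intervals that included 1.

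Among the S-phase entry genes cyclin E2 was higher and RB1 lower in PPAT-CM. CCNE2 had 112 counts in PPAT-CM, 55 in PVAT-CM and 57 in control-CM and was 1.59-fold higher than in control-CM (1.15 to 2.23). It shares 37% of its exon bases with INTS8 on the other strand. RB1, which holds E2F in check, had 667, 639 and 814 counts and was 1.51-fold lower in PPAT-CM (1.36 to 1.67). The RB1 and TYMS ratios lay at the threshold, and neither was called with DESeq2 size factors or with TMM factors computed without mitochondrial genes. CCND1 had 2295, 1599 and 1675 counts (1.11-fold higher, 1.04 to 1.18) and CCND3, cyclin D3, had 588, 351 and 352 (1.35-fold higher, 1.18 to 1.55). CCNE1, cyclin E1, had 189, 132 and 161 counts and E2F1 had 67, 48 and 54, and both intervals included 1.

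**Figure D3:**
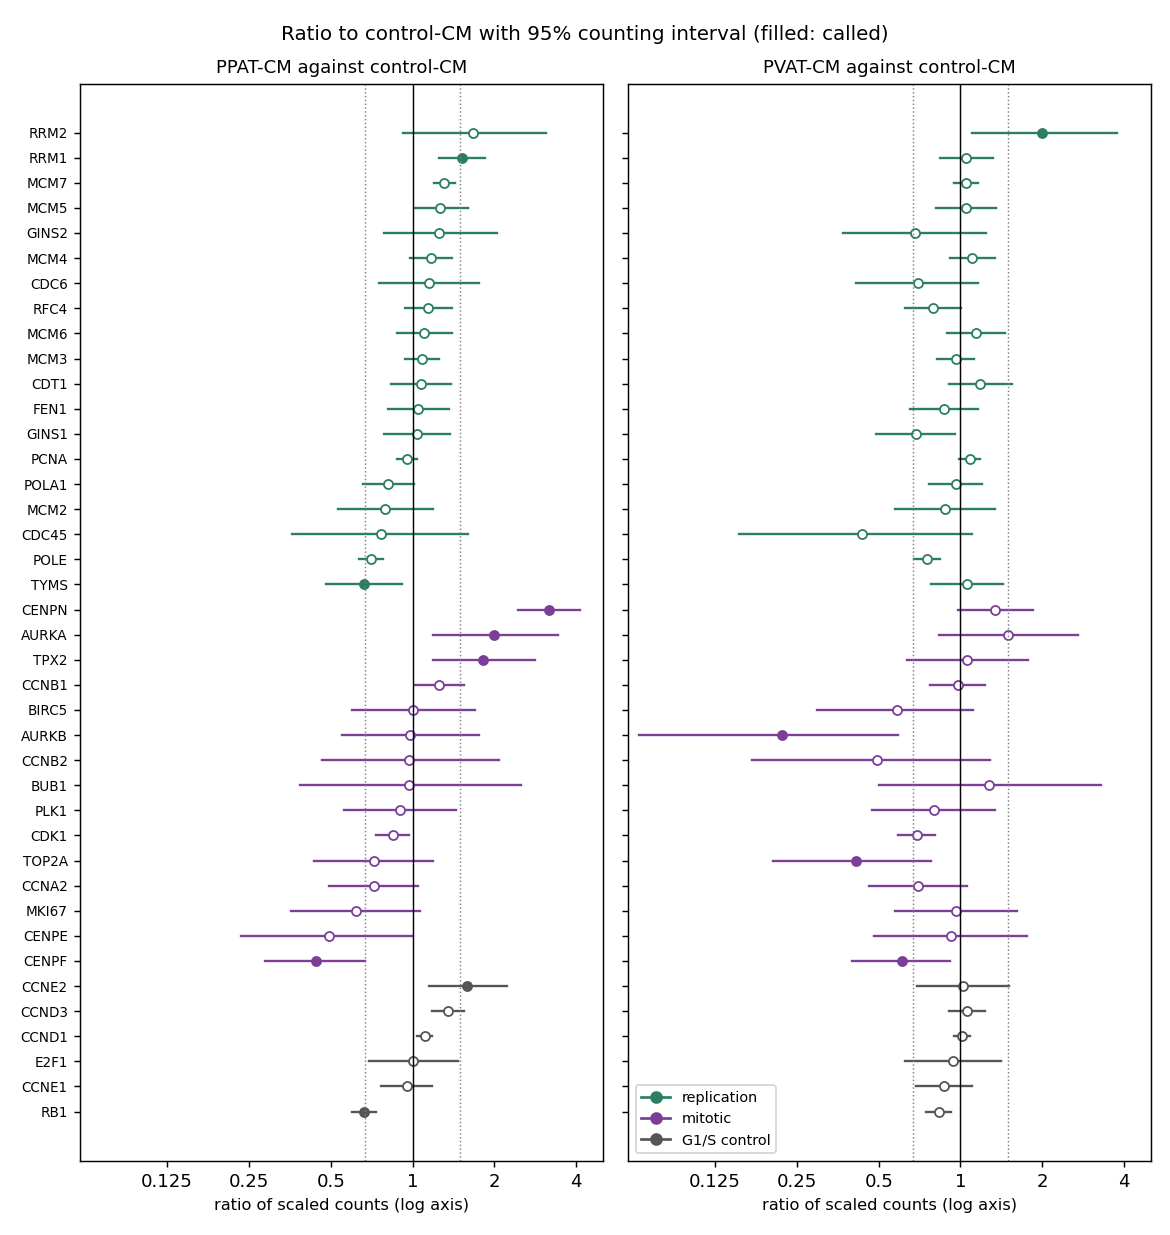
Ratio of scaled counts (log axis) for PPAT-CM over control-CM and PVAT-CM over control-CM, with 95% counting intervals; filled points are called, and dotted lines mark 1.5-fold either way. CENPN lies furthest to the right in the left panel, at 3.16, and AURKB furthest to the left in the right panel, at 0.221.

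The neighbourhood of CENPN was examined because its exons overlap other genes. It shares 457 exon bases, 12.8% of its own, with CMC2 on the other strand. CMC2 had 714 counts in PPAT-CM, 519 in PVAT-CM and 573 in control-CM, a ratio of 1.01 for PPAT-CM over control-CM (0.903 to 1.13). ATMIN, next to CENPN, had 1690, 1090 and 1082 counts, a level 1.27-fold higher (1.17 to 1.37). GCSH had 1096, 983 and 1100 counts and was 1.24-fold lower (1.14 to 1.35). The transcript AC092718.4, which lies within the span of CENPN on the same strand, had 304, 212 and 152 counts, a level 1.62-fold higher (1.33 to 1.98), and AC092718.7 and AC092718.3 had 22, 4, 11 and 32, 20, 16 counts in the same order of media. None of the 6 neighbours within 50 kb that had a mean of at least 10 counts reached the CENPN ratio for PPAT-CM over control-CM. For PPAT-CM over PVAT-CM AC092718.7, on 22 and 4 counts, was 4.21-fold higher (1.43 to 16.8), above CENPN at 2.35-fold.

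**Figure D4:**
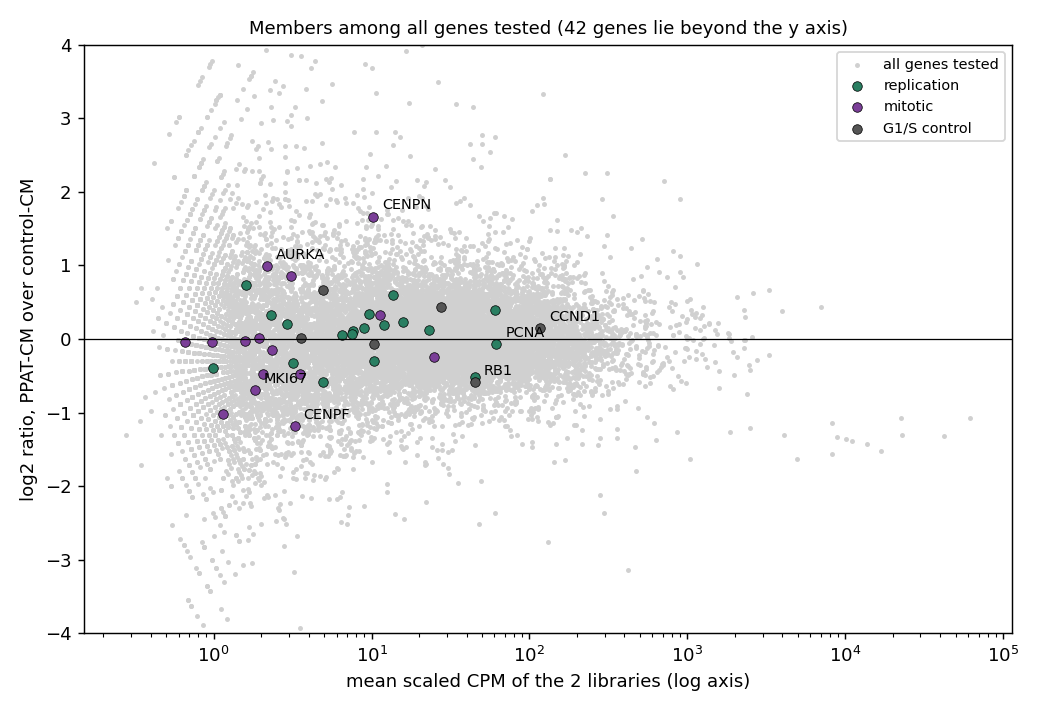
Log2 ratio of PPAT-CM over control-CM against the mean scaled CPM of these libraries (log axis), for all genes tested with a count in each (grey) and the 40 genes (coloured by group); 42 genes lie beyond the y axis. CENPN, at 1.66, is the highest of the 40 and CENPF, at -1.18, the lowest, and both lie inside the cloud of all genes.

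The comparison of PVAT-CM with control-CM gave fewer calls. In PVAT-CM 1 of 40 genes (2.5%) was higher and 3 (7.5%) were lower, against 3.68% and 5.3% of all genes tested. The median log2 ratio was -0.06 over the replication genes, -0.32 over the mitotic genes and -0.04 over the entry genes, against 0.00 over all genes tested. RRM2, with 34 counts in PVAT-CM and 18 in control-CM, was 2.00-fold higher (1.10 to 3.76). AURKB, the Aurora B kinase of the chromosomal passenger complex, was 4.53-fold lower (1.70 to 15.2), on 5 counts in PVAT-CM and 24 in control-CM. TOP2A was 2.43-fold lower (1.28 to 4.88) and CENPF 1.65-fold lower (1.10 to 2.51). Each of these 4 calls rests on 68 counts or fewer in either library. Of the 24 members with a mean of at least 50 counts, 0 were higher and 0 lower, against 2.92% and 3.62% of such genes.

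The most abundant mitotic gene, CDK1, was 1.45-fold lower in PVAT-CM than in control-CM (1.24 to 1.70). The ratio was under 1 for 11 of the 15 mitotic genes in PVAT-CM and for 10 of 15 in PPAT-CM. Of all 16009 genes tested it was above 1 for 8005 in PVAT-CM and 7783 in PPAT-CM. Both comparisons use the same control library, and among the mitotic genes MKI67, CCNB1 and CENPE in PVAT-CM and CDK1, CCNB2, AURKB, BUB1, PLK1 and BIRC5 in PPAT-CM crossed 1 under another scaling. POLE was 1.32-fold lower in PVAT-CM (1.19 to 1.48) and GINS1 1.46-fold lower (1.05 to 2.05). PCNA, MCM7, RRM1, CCND1 and CCND3 were within 1.1-fold of control-CM with intervals that included 1. RB1 was 1.2-fold lower (1.08 to 1.34).

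Between the adipose media PPAT-CM had 7 of 40 genes (17.5%) higher and 1 (2.5%) lower than PVAT-CM, against 9.13% and 7.9% of all genes tested. The median log2 ratio was 0.17 over the replication genes and 0.36 over the mitotic genes, against -0.00 over all genes tested. CENPN was 2.35-fold higher (1.86 to 3.00), AURKB 4.44-fold on 29 counts in PPAT-CM and 5 in PVAT-CM (1.70 to 14.7), and TPX2 1.72-fold (1.12 to 2.67). GINS1 and GINS2, subunits of the helicase activator, were 1.52-fold (1.11 to 2.10) and 1.84-fold higher (1.07 to 3.27), with 123 and 48 counts in PPAT-CM against 62 and 20 in PVAT-CM. The origin factor CDC6 was 1.64-fold higher on 58 and 27 counts (1.02 to 2.70), and CCNE2 was 1.56-fold higher (1.12 to 2.19). TYMS was 1.59-fold lower (1.16 to 2.20). Of the 24 members with a mean of at least 50 counts, 3 were higher and 1 lower, against 8.13% and 6.51% of such genes.

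Summed over their members, the replication genes differed little between media, and the mitotic genes were lowest in PVAT-CM. With total counts the replication sum of both adipose media exceeded that of control-CM. The 19 replication genes together had 5644 counts in PPAT-CM, 4070 in PVAT-CM and 4427 in control-CM, or 303.8, 286.2 and 294.1 scaled CPM. The 15 mitotic genes together had 1374, 775 and 1024 counts, or 74.0, 54.5 and 68.0 scaled CPM. The replication sum had a ratio of 1.03 for PPAT-CM over control-CM (0.993 to 1.07), 0.973 for PVAT-CM over control-CM (0.932 to 1.02) and 1.06 for PPAT-CM over PVAT-CM (1.02 to 1.11). The mitotic sum had ratios of 1.09 (1.00 to 1.18), 0.801 (0.729 to 0.880) and 1.36 (1.24 to 1.48) in the same order. The 51 other mitotic genes described below summed to 469.8 scaled CPM in PPAT-CM, 470.8 in PVAT-CM and 499.6 in control-CM. PVAT-CM was not the lowest there.

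The number of mitotic counts per 100 replication counts needs no scaling between libraries. It was 24.3 in PPAT-CM, 19.04 in PVAT-CM and 23.1 in control-CM. The ratio of these values was 1.05 for PPAT-CM over control-CM (0.961 to 1.15), 0.823 for PVAT-CM over control-CM (0.742 to 0.913) and 1.28 for PPAT-CM over PVAT-CM (1.16 to 1.41). Single genes weighed on these sums. CENPN gave 21.0% of the mitotic counts in PPAT-CM, 12.1% in PVAT-CM and 7.23% in control-CM. Without CENPN the values were 19.2, 16.7 and 21.5 mitotic counts per 100 replication counts, and the ratio for PPAT-CM over control-CM was 0.896 (0.813 to 0.987). CENPN had the highest ratio of PPAT-CM over control-CM among the mitotic genes. Leaving it out was therefore bound to lower this ratio, and the interval takes no account of that choice. Without CENPN the mitotic sum for PPAT-CM over control-CM turned from above 1 to 0.926, with an interval that included 1 (0.848 to 1.01). Without the most abundant gene of each group, CDK1 and PCNA, the ratio of mitotic to replication counts was 0.926 for PVAT-CM over control-CM, with an interval that included 1 (0.814 to 1.05).

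**Figure D5:**
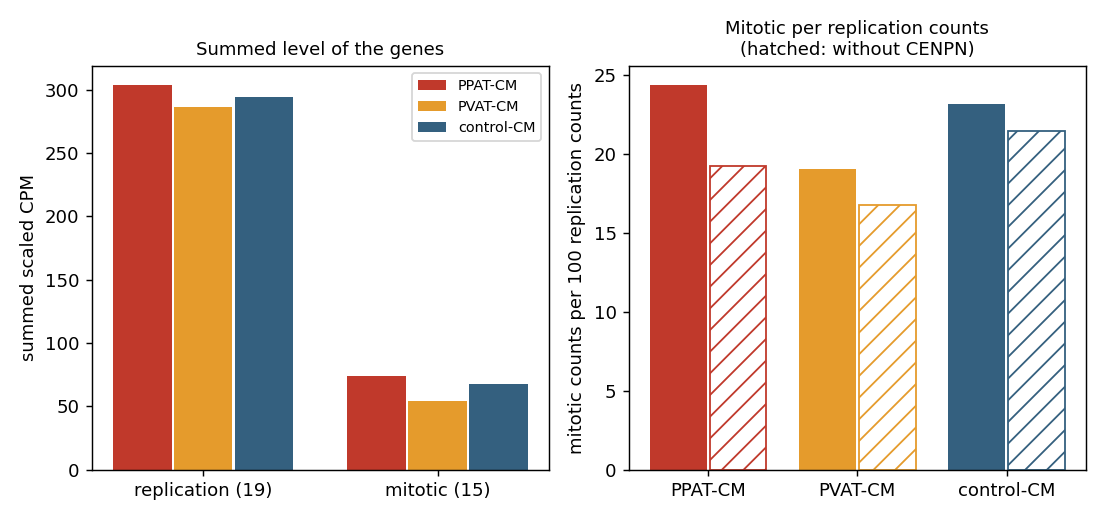
Left, summed scaled CPM of the 19 replication and 15 mitotic genes in each library; right, mitotic counts per 100 replication counts with all 15 mitotic genes (solid) and without CENPN (hatched). With all 15 genes PPAT-CM has 24.3, PVAT-CM 19.04 and control-CM 23.1, and without CENPN control-CM is the highest, at 21.5. CENPN has the highest ratio of PPAT-CM over control-CM among the mitotic genes, so leaving it out is bound to lower PPAT-CM against control-CM.

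Further genes of the same pathways were read from lists, of which a gene was tested if its mean reached 10 counts. Of 51 other mitotic genes 38 were tested, and 0 were higher and 10 (26.3%) lower in PPAT-CM than in control-CM. The background was 11.7% higher and 11.6% lower. The median log2 ratio was -0.14. Of the 10 lower genes CCNF alone had a mean of at least 50 counts. Among all genes with such a mean 9.6% were lower, so the share among genes with fewer counts is above 11.6%. The excess over the background is therefore smaller than these shares show. A low gene can pass the filter through its control-CM count alone. Of these 10 genes only KIF20A did so, and its call carries no weight in this count. KIF20A, a kinesin of cytokinesis, had 7, 10 and 38 counts in PPAT-CM, PVAT-CM and control-CM and was 6.70-fold lower in PPAT-CM (2.96 to 17.8). UBE2C, the ubiquitin-conjugating enzyme of the anaphase-promoting complex, had 10, 13 and 38 counts and was 4.69-fold lower (2.29 to 10.6). SPC24, a kinetochore subunit, was 3.54-fold lower on 15, 30 and 43 counts (1.93 to 6.86), and PTTG1, which encodes securin, was 2.43-fold lower on 32, 29 and 63 counts (1.56 to 3.84). In PVAT-CM 0 of the 38 were higher and 7 (18.4%) lower than in control-CM, against 3.68% and 5.3% of all genes tested. These 7 include KIF20A and KIF15 (15, 3 and 12 counts), which would not have passed the filter without their control-CM counts. Of the 7, too, CCNF alone had a mean of at least 50 counts. Among all genes with such a mean 3.62% were lower, so the share among genes with fewer counts is above 5.3%. PPAT-CM against PVAT-CM had 3 higher (7.89%) and 2 lower (5.26%), against 9.13% and 7.9%. KIF20A, UBE2C, SPC24 and PTTG1 were named because their called ratios of PPAT-CM over control-CM were the lowest of the list. That control-CM held the highest count of each largely follows from this choice, and all their counts were low.

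Of 50 other replication genes 46 were tested, with 5 higher (10.9%) and 2 lower (4.35%) in PPAT-CM than in control-CM, against 11.7% and 11.6% of all genes tested, and a median log2 ratio of 0.00. GINS4 had 62, 18 and 13 counts, a level 3.86-fold higher (2.10 to 7.66). CDC7, the kinase that activates the loaded helicase, had 464, 119 and 184 counts and was 2.04-fold higher in PPAT-CM than in control-CM (1.72 to 2.44). POLE4 was 1.93-fold (1.65 to 2.26) and POLD2 1.54-fold higher (1.44 to 1.65). The DNA ligase gene LIG1 had 148, 237 and 263 counts and was 2.19-fold lower (1.79 to 2.70). In PVAT-CM 0 were higher and 1 (2.17%) lower than in control-CM, against 3.68% and 5.3%, and the lower one was TK1, thymidine kinase, at 1.75-fold (1.44 to 2.13). PPAT-CM against PVAT-CM had 4 higher (8.7%) and 1 lower (2.17%), against 9.13% and 7.9%.

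Of 27 other genes of cyclin-dependent kinases, their inhibitors and pocket proteins 23 were tested, with 5 higher (21.7%) and 2 lower (8.7%) in PPAT-CM than in control-CM, against 11.7% and 11.6% of all genes tested. CDK4, a partner of cyclin D, had 611, 236 and 184 counts in PPAT-CM, PVAT-CM and control-CM. It was 2.69-fold higher in PPAT-CM (2.28 to 3.19), with 43.2% of its exon bases shared with TSPAN31 on the other strand. TSPAN31 itself had 421, 338 and 252 counts. CDK6, another partner of cyclin D, had 49, 12 and 3 counts, 13.2 times the control-CM level (4.27 to 66.4). It passed the filter only through its PPAT-CM count and is among the 5 higher genes, so its call carries no weight in that count. The inhibitor gene CDKN2B was 1.98-fold higher on 110, 44 and 45 counts (1.39 to 2.87), and E2F5 was 1.92-fold higher (1.56 to 2.38). The lower genes were the inhibitor gene CDKN1C, 2.06-fold on 42, 61 and 70 counts (1.38 to 3.09), and the phosphatase gene CDC25A, 1.5-fold on 60, 38 and 73 counts (1.05 to 2.15). In PVAT-CM 1 was higher (4.35%) and 1 lower (4.35%) than in control-CM, against 3.68% and 5.3%. The higher one was CDK6, on 12 and 3 counts, and this call carries no weight either. PPAT-CM against PVAT-CM had 4 higher (17.4%), CDK6 again among them, and 1 lower (4.35%), against 9.13% and 7.9%.

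The other genes of the constitutive centromere network, to which CENPN belongs, did not share its ratio. Of 20 listed, 19 were found by name and 16 tested, and 2 (12.5%) were higher and 2 (12.5%) lower in PPAT-CM than in control-CM, near the 11.7% and 11.6% of all genes tested, with a median log2 ratio of -0.06. The higher ones included CENPP at 1.55-fold (1.07 to 2.27), and the lower ones were CENPW at 2.09-fold (1.42 to 3.13) and CENPM at 1.62-fold (1.12 to 2.36). CENPP shares 38% of its exon bases with IPPK on the other strand, so its counts are uncertain. IPPK itself had 57 counts in PPAT-CM, 30 in PVAT-CM and 17 in control-CM. In PVAT-CM 0 were higher and 1 (6.25%) lower than in control-CM, against 3.68% and 5.3%. PPAT-CM against PVAT-CM had 2 higher (12.5%) and 1 lower (6.25%), against 9.13% and 7.9%. Of 7 genes of the DREAM and MuvB complexes, 0 were higher and 1 (14.3%) lower in PPAT-CM than in control-CM, LIN37 at 1.51-fold (1.02 to 2.23), against 11.7% and 11.6% of all genes tested. LIN37 shares 41.8% of its exon bases with AD000671.3 on the other strand. In PVAT-CM 0 were higher and 0 lower than in control-CM, against 3.68% and 5.3%. PPAT-CM against PVAT-CM had 0 higher and 1 lower (14.3%), against 9.13% and 7.9%.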

How the data were processed

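The authors deposited 1 table of raw counts per Ensembl gene for the 3 libraries, with 58884 rows, none of them a total. The submitters' processing notes name HISAT2 and featureCounts, besides FastQC, Trimmomatic and edgeR, and the GRCh38 build; no source used here gives versions or the strand setting. Per the labels' protocols, RNeasy RNA went into KAPA mRNA HyperPrep libraries. Symbols, coordinates and exon lengths came from GENCODE release 29 (58611 rows matched). Counts were scaled by TMM in edgeR 4.0.16 (R 4.3.3) over 16009 genes with a mean of at least 10 counts. Ratios have exact conditional (Clopper-Pearson) 95% intervals, and the ratio of mitotic to replication counts a conditional odds ratio interval, from scipy 1.17.1. Reads carried no molecular identifiers and need not be independent, so intervals may be too narrow. No p-value was computed, since 1 library a medium leaves nothing to estimate the spread from. Genes were named by rule: every member called in PPAT-CM or PVAT-CM against control-CM or between the adipose media, the 4 most abundant of each group, all entry genes and some fixed markers; from other lists up to 4 genes called in a comparison. The promoter windows were chosen after the matches were seen. The members and lists were chosen with earlier results of these data known. Alternatives were DESeq2 1.42.0 size factors, total counts, upper quartile factors, TMM without mitochondrial genes, other filters, folds and intervals, and sums without single members. Single values of some listed genes are not reported here.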

Additional observations from a re-analysis of the deposited data

How the results depend on the processing

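No paired analysis was possible because each medium had 1 library. Scaling by total counts instead of TMM moved the median log2 ratio of all genes tested by 0.27 for PPAT-CM over control-CM, 0.14 for PVAT-CM over control-CM and 0.13 for PPAT-CM over PVAT-CM. The replication sum then had ratios of 1.24, 1.07 and 1.16 in this order, and the mitotic sum 1.31 for PPAT-CM and 0.883 for PVAT-CM over control-CM. The members called for PPAT-CM over control-CM became 10 higher and 1 lower, and 3725 of all genes were higher and 942 lower, against 1866 and 1850 with TMM. For PVAT-CM over control-CM all genes split into 1128 higher and 514 lower, against 589 and 849, and for PPAT-CM over PVAT-CM into 2076 and 862, against 1461 and 1264. Counts of members called, 8, 4 and 8 in the same order, were 5, 0 and 4 with a mean of at least 50 counts and 2, 2 and 2 at 2-fold. With no condition on the interval they were 7 for PVAT-CM over control-CM and 14 for PPAT-CM over PVAT-CM. Without its most abundant gene the mitotic sum was 1.25 for PPAT-CM over control-CM, and the replication sum 1.12 for PPAT-CM over PVAT-CM. Without CENPN the mitotic sum was 0.926 for PPAT-CM over control-CM, the reverse of 1.09, and 1.22 for PPAT-CM over PVAT-CM. Leaving out CENPN, the mitotic gene with the highest ratio of PPAT-CM over control-CM, was bound to lower the PPAT-CM ratios. The ratio of mitotic to replication counts without CENPN was 0.896 and 1.15 in these comparisons. Without CDK1 and PCNA it was 1.18 for PPAT-CM and 0.926 for PVAT-CM over control-CM. Mitotic genes mostly had fewer than 50 counts, so 1.5-fold differences in them were often not detectable at this depth. Culture-to-culture spread was not measured.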
